A study of Mus musculus with 6 samples.

Results

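The 9 genes Myd88, Irak4, Irak1, Irak2, Traf6, Tab2, Map3k7, Chuk and Ikbkb encode the relay that carries a signal from the interleukin-33 receptor ST2 to the IκB kinases. Open chromatin at these genes was described in regulatory T cells of il33-/- mice (KO, 3 libraries, replicates 1, 2 and 4) and of C57BL6 mice (WT, 3 libraries, replicates 2, 4 and 6). The il33-/- allele was on a C57BL6 background. All mice carried B16.F10 melanoma, a mouse tumour line, from a subcutaneous dose of 300000 cells. At day 14 the lymph nodes draining the tumour were taken, and CD4+CD25+GITR+ cells were sorted. The labels also call these cells Foxp3+, but Foxp3 is not in the sort they describe. The assay was ATAC-seq, in which the Tn5 transposase cuts accessible DNA, and each library was summarised as a list of peaks. Members were chosen by position: a peak counted where it overlapped the RefSeq span of a gene or 10 kb on either side, and overlapping peaks of the 6 lists were merged into regions. This gave 35 regions of 64817 in all.

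The KO libraries were shallower, with 8.21, 4.72 and 10.3 M (mega) tags, against 13.1, 12.9 and 15.2 M in WT. Effects of depth cannot be told apart from effects of genotype here. The KO lists held 37266 to 42738 peaks and the WT lists 52836 to 55939. No peak lay on chromosome Y in any KO list, against 9, 8 and 9 in the WT lists. The labels give no sex, and the part of this difference in the results was not tested. The peaks do not check the Il33 label, since 1 peak was called at the Il33 locus in each of the 6 lists and which part of the gene was deleted is not stated in the labels. All 7 Treg markers had regions, with 43 to 49 called per KO library and 59 to 63 per WT library. As a share of the longer WT lists the groups overlapped, at 10.6, 11.5 and 11.5 per 10000 peaks in KO, against 11.1, 11.3 and 11.7 in WT. Foxp3 had 5 in each KO library and 6 in each WT library, not scaled to list length. Fewer regions were called at markers of other cells: 9 to 14 in KO and 17 to 22 in WT for B cells, 3 to 4 in KO and 6 to 7 in WT for CD8 T and NK cells, 10 to 12 in KO and 15 in WT for myeloid cells, and 8 to 11 in KO and 9 to 12 in WT for melanoma. Scaled to 10000 peaks, the groups overlapped for B cells, myeloid cells and melanoma. For CD8 T and NK cells they did not, with 0.943, 0.805 and 0.936 in KO, against 1.13, 1.07 and 1.32 in WT. In these lists of other cells Ms4a1, Ncr1, Csf1r, Lyz2, Tyr and Dct had no region in any library, and all the other genes had regions. The tallest were at Pmel (5.69), Cd14 (4.41), Cd79a (4.07) and Mitf (3.52), in medians of the library's peaks. Each of those genes had a region called in all 6 libraries. The part of other cells in the results was not tested.

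ST2 is a receptor of the interleukin-1 receptor family that signals through a shared adaptor. MyD88 binds the receptor and gathers the kinases IRAK4, IRAK1 and IRAK2 into a complex, which activates the ubiquitin ligase TRAF6. Ubiquitin chains made by TRAF6 are bound by TAB2, which brings in the kinase TAK1, the product of Map3k7. TAK1 activates the IκB kinases encoded by Chuk (IKKα) and Ikbkb (IKKβ), which release NF-κB, and it also starts a branch to the JNK and p38 kinases. ST2 is carried by many Tregs of tissues and tumours, and interleukin-33 is known to expand such cells.

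Promoter windows of 300 bases, from 250 before to 50 after the start site, were taken from RefSeq on GRCm38.p6 and were found for 8 of the 9 genes, all but Ikbkb. The 5 shown here were picked either for a result at their regions or for a motif match. Myd88 (chr9:119339969-119340268, minus strand) and Acaa1a (chr9:119341044-119341343, plus strand) are neighbours that are read away from each other, with start sites 1276 bp apart. The start region of Tab2 (chr10:7956074-7956373, minus strand) was the one that lay lower in KO on both scales used. The windows of Irak1 (chrX:74023872-74024171, minus strand) and Map3k7 (chr4:31963857-31964156, plus strand) were the member windows with a match to an NF-κB motif. Each is written 5′ to 3′ on the strand of its gene, and capitals mark every motif match.
Myd88: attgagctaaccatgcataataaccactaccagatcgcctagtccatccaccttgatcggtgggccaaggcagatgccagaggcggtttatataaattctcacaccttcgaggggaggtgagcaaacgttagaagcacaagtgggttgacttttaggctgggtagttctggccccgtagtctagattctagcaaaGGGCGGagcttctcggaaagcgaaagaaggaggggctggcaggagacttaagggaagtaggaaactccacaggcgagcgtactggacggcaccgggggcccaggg
Acaa1a: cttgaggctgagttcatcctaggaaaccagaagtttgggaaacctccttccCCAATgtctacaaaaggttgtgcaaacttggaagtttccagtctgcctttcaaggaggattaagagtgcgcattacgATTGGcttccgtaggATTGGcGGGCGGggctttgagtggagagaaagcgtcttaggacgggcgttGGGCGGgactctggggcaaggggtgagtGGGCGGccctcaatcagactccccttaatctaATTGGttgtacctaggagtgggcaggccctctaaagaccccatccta
Tab2: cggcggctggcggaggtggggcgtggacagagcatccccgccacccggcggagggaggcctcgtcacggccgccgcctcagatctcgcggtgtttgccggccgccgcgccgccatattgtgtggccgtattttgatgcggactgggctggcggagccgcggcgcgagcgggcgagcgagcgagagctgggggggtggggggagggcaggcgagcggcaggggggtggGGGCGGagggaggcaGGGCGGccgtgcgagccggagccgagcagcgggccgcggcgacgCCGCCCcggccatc
Irak1: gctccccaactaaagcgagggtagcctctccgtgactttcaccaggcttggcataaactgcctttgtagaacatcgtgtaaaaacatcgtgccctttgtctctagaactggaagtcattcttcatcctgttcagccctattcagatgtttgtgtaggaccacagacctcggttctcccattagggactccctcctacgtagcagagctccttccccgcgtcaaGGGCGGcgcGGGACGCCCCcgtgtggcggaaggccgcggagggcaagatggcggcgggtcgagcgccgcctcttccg
Map3k7: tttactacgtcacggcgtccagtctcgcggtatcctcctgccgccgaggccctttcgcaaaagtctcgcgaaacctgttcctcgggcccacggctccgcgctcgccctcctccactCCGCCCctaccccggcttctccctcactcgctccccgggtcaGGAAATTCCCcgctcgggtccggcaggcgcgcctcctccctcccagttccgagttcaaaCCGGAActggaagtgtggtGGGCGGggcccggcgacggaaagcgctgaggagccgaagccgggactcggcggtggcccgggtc

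The motifs searched on both strands were the GC box (GGGCGG), the ETS core (CCGGAA), the CCAAT box, the cyclic AMP response element (TGACGTCA), the AP-1 motif (TGANTCA) and the NF-κB motif, and no matches overlapped in the windows printed. A GC box was in 8 of the 8 member windows, against 35.7% of all 32851 windows. An ETS core was in 3 member windows (14.9% of all) and a CCAAT box in 2 (37.4% of all). An NF-κB match was in 2 (8.46% of all), while the cyclic AMP response element (1.79% of all) and the AP-1 motif (7.81% of all) were in 0. The GC box of Myd88 began 55 bases before the start site. Acaa1a had 3 GC boxes and 4 CCAAT boxes. The window of Tab2 was 78.0% G or C, against 54.0% for Myd88, 53.3% for Acaa1a and a median of 52.7% over all windows. The other member windows ran from 51.7% at Chuk to 69.0% at Map3k7. The share of windows with a GC box was not compared with windows of like G and C content or with those of open promoters. These matches describe letters and do not show that a factor was bound.

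Each of the 9 genes had 1 region at its start site, and all 9 were called in every library. The start of Ikbkb was taken as the gene end with the tallest region, since no strand was given for it. That a region lies at this start was therefore fixed by the choice. Heights are given as the pileup (how many extended tags cover the summit) divided by the median pileup of all peaks of the same library, so that a height of 1 is that of a middling peak. On this scale the median over the 29419 regions called in all 6 libraries was 1.35, 1.25 and 1.30 in KO, against 1.61, 1.74 and 1.62 in WT. A typical region therefore lay at a log2 difference of -0.32 in KO, and 48.4% of all such regions had every KO height under every WT height. For the tests, log2 heights were centred on the median of these regions in each library, which brought the median difference of all of them to 0.03. Scaled to tags instead, the same regions had a median difference of 0.05, so the direction for a typical region depended on the scaling and no overall drop in KO is shown. For a single region, lower accessibility per cell and fewer open cells cannot be told apart in bulk samples.

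At the start of Myd88, the adaptor, the height was 1.75, 2 and 1.57 in KO, against 2.5, 3 and 2.48 in WT. The summit pileups behind these were 35, 32 and 36 in KO, against 70, 81 and 72 in WT. The KO libraries were all below the WT libraries. After centring the difference was -0.24 (SE 0.13; 95% interval -0.50 to 0.02) and the groups overlapped (adjusted p = 0.351, limma over all 29419 regions). With heights scaled to the file median in the same test the difference was -0.59 (adjusted p = 0.00219), a setting under which 34.9% of all regions were called lower.

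Among the kinases, IRAK4 is the first to act, and its gene had the tallest start region of the 9 in every library. Irak4 reached 3.80, 3.50 and 3.65 in KO, against 3.82, 4.44 and 3.83 in WT. This region also holds the start site of Pus7l, a neighbour read the other way, and signal of the genes of the pair cannot be told apart there. The highest KO height was just under the lowest WT height, and after centring the order turned, with a difference of 0.21 (SE 0.09, adjusted p = 0.22). Irak1 had 1.45, 1.62 and 1.43 in KO, against 1.82, 1.96 and 1.79 in WT. It was the lowest or level with the lowest of the 9 starts in each library, its KO heights lay below its WT heights, and after centring the groups overlapped (0.04, SE 0.15, adjusted p = 0.93). Irak1 lies on chromosome X, where the median centred difference of 611 regions was -0.02. Irak2, a kinase that acts in the later phase of the response, had 2.85, 3.06 and 3 in KO, against 3.32, 3.04 and 3.28 in WT. The groups overlapped at Irak2, and the centred difference of 0.24 (SE 0.10) gave an adjusted p of 0.228.

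Traf6, the ubiquitin ligase, had heights of 2.1, 2.12 and 2.04 at its start in KO, against 2.89, 2.96 and 2.52 in WT. The KO values were close together and all below the WT values, while the centred difference was -0.07 (SE 0.12, adjusted p = 0.835). At Map3k7, the gene of TAK1, the heights were 2.85, 3.19 and 2.48 in KO, against 3.43, 3.37 and 3.45 in WT. They did not overlap either, and the centred difference was 0.07 (SE 0.11, adjusted p = 0.793). Tab2, the ubiquitin reader of the TAK1 complex, had 1.45, 1.69 and 1.78 in KO, against 2.32, 2.74 and 2.66 in WT. At Tab2 the centred difference was -0.30 (SE 0.13; 95% interval -0.57 to -0.04), and its groups stayed apart after centring. The adjusted p was 0.226, so the difference did not pass the test. It was -0.0435 with fold enrichment in place of pileup and -0.191 without KO replicate 1.

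The kinase genes of the last step had start regions of middle height. Chuk had 2.40, 2.12 and 2.22 in KO, against 2.46, 2.70 and 2.52 in WT. Ikbkb had 2.3, 2.25 and 1.87 in KO, against 2.32, 2.52 and 3 in WT. In both genes the KO heights lay below the WT heights by a small margin, and the centred differences were 0.16 for Chuk (SE 0.12, adjusted p = 0.525) and 0.06 for Ikbkb (SE 0.13, adjusted p = 0.861). Chuk lies on chromosome 19 with Il33, 14.1 Mb away, and the median difference of the 917 regions on that chromosome was 0.02.

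Across the 9 starts, 8 had heights that were lower in KO with no overlap, against 56% of all regions with a RefSeq start site. After centring, 6 had positive and 3 had negative differences, and all 6 positive ones were negative under scaling to the file median. No overlap was left at 3 that were higher in KO, Irak2, Irak4 and Chuk (22.4% of all start-site regions), and at 1 that was lower, Tab2 (6.47%). At an adjusted p under 0.05, 0 of the 9 passed in either direction, against 4.75% higher and 0.319% lower of all start-site regions, while 3 had an unadjusted p under 0.05 in limma, the 1 tool run, a bound that 16.4% of all 29419 regions passed. The median of the 9 was 0.06, beside 0.07 for all regions with a start site. The order of the starts held at its ends: Irak4 came first, Irak2 and Map3k7 took ranks 2 and 3, and Irak1 took rank 8 or 9 in every library. The genes between them, Traf6, Chuk, Ikbkb, Myd88 and Tab2, changed places between libraries. Summits lay within 15 to 188 bp of each other over the 6 libraries at each start, and in 7 of the 9 genes within less than 100 bp. The wide ones were Map3k7 at 188 bp and Tab2 at 130 bp.

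**Figure D1:**
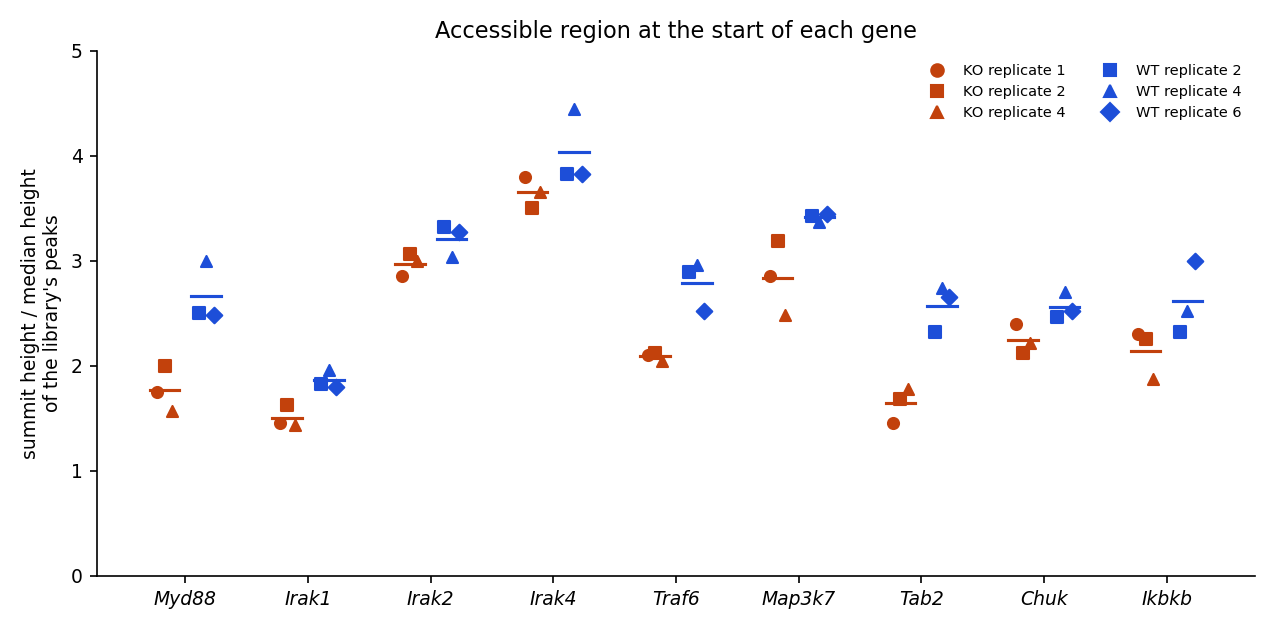
Summit height at the start region of each of the 9 genes, as pileup divided by the library's median pileup. Points are libraries and lines are group means, with the 3 KO libraries left of the 3 WT libraries. Irak4 is tallest in all 6, and only at Irak2 do the KO and WT points overlap.

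The largest number of regions was at Irak2, with 10 in all and 9 called in every library. Its gene body held 8, of which 7 were called in every library, the strongest of them 30.5 kb inside the gene at chr6:113668575-113669335. That region had heights of 2.60, 1.94 and 2.22 in KO, against 2.75, 2.70 and 3 in WT. KO lay below WT there, and the centred difference was 0.01 (adjusted p = 0.969). Another 3 of the body regions did not overlap: 6.58 kb from the start KO had 0.60, 0.75 and 0.57, against 0.82, 1.11 and 0.86 in WT. In the region with its tallest summit at 23.2 kb KO had 1.90, 1.69 and 2.43, against 2.61, 2.67 and 2.48 in WT. The summit of KO replicate 1 in that region was at 22105 bp, while those of the other libraries were at 23198 to 23227 bp. Its 1.90 is thus the height of another summit of the same merged region. At 31.5 kb KO had 1.80, 1.62 and 1.48, against 2.21, 2.15 and 2.21 in WT. KO was thus the lower group without overlap in 4 of the 7, beside 48.4% of all regions, and the 3 others overlapped. Over the 7 regions the centred differences ran between -0.22 and 0.16, with adjusted p from 0.679 to 0.969.

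Irak4 had 4 weaker regions inside the gene, 3 of them called in all libraries, with heights of 0.375 to 1.43 in KO and 0.667 to 1.52 in WT. One did not overlap, 22.4 kb from the start, with 0.65, 0.375 and 0.652 in KO, against 0.929, 0.667 and 0.724 in WT. Its KO heights came up to just below the lowest WT height, and the centred difference was -0.15 (adjusted p = 0.818). Map3k7 and Ikbkb each had 1 region inside the gene in all libraries. At Map3k7 it was low, from 0.391 to 0.70 in KO and from 0.448 to 0.786 in WT, and at Ikbkb it ranged from 0.812 to 1.6 in KO and from 1.41 to 1.55 in WT. Both overlapped between the groups.

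Regions in the 10 kb flanks mostly belonged to neighbours. Beyond the end of Chuk, the start region of Erlin1 (chr19:44068932-44070155) had heights of 1.5, 1.56 and 1.35 in KO, against 2.36, 2.81 and 2.03 in WT. All KO heights were lower, also after centring, with a difference of -0.35 (SE 0.14, adjusted p = 0.176). A region in Polb near Ikbkb (chr8:22652910-22653820) had 2.25, 2.19 and 2.17 in KO, against 3.11, 3.15 and 3.17 in WT. It too was lower in KO on both scales, with a difference of -0.16 after centring (adjusted p = 0.473). The start region of Tatdn2 next to Irak2 overlapped, with 4.2, 3.56 and 4.00 in KO, against 4.18, 4.52 and 4.55 in WT, and after centring all KO values were higher (0.17, adjusted p = 0.311). The flank region of Ikbkb that is on the side of its start overlapped on both scales (0.20, adjusted p = 0.476).

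**Figure D2:**
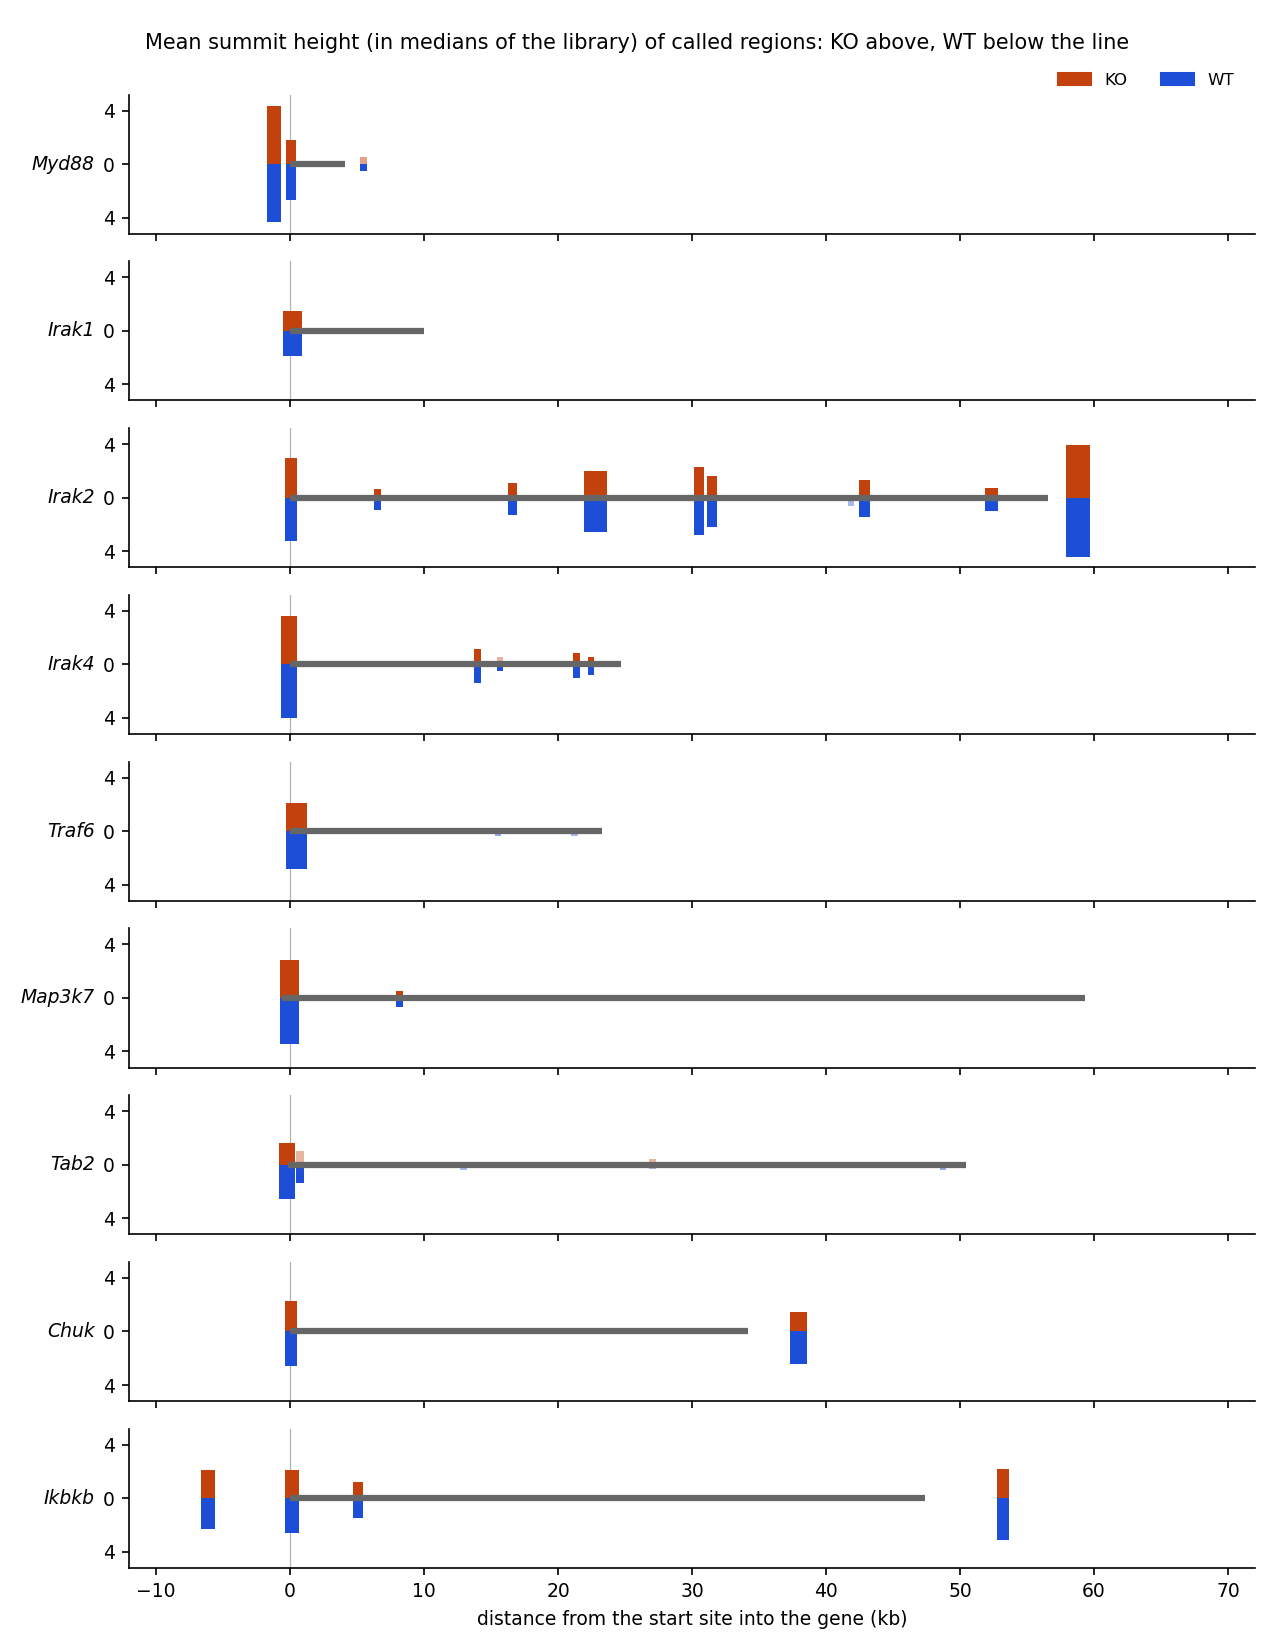
Merged regions along each gene, with distance from the start site in kb on the x axis and scaled height on the y axis (mean over the libraries that called the region), KO above the line and WT below it. Paler bars were called in fewer than 3 libraries of the group, bars are drawn at least 0.5 kb wide, and the grey line is the gene. Irak2 has the most regions, while Irak1 has 1.

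Of the 35 regions, 26 were called in all 6 libraries, which is 74.3% against 45.4% of all regions. All 9 at starts, 12 of 20 inside genes and 5 of 6 in the flanks were among them. The 9 others were low where called, with heights of 0.345 to 0.621 in 8 of them. The exception was a region inside Tab2, 0.81 kb from its start and 41 bp from its start region (chr10:7955116-7955699). It was called at 1 in KO replicate 4 and in no other KO library, and at 1.18, 1.59 and 1.31 in WT. No member region was called in all 3 WT and no KO libraries (4.66% of all regions), and none in all 3 KO and no WT libraries (0.0185%). In 5 regions some WT library and no KO library made a call, against 25.6% of all regions. These were 1 in Irak2, 2 in Traf6 and 2 in Tab2, each called in 1 or 2 WT libraries.

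The libraries held 27, 26 and 30 member regions in KO, against 31, 32 and 32 in WT. KO lists thus had fewer, 27.7 ± 2.08 against 31.7 ± 0.577 (SD, n = 3 each), a difference of -4 with p = 0.1 in a two-sided exact permutation test, the smallest p that 20 assignments allow. Per 10000 peaks of the list the order was the other way, at 6.37, 6.98 and 7.02 in KO, against 5.82, 5.72 and 6.06 in WT. The KO mean was 6.79 ± 0.365 and the WT mean 5.87 ± 0.172 (SD over 3 libraries; difference 0.922, exact permutation p = 0.1). With all lists cut to equal length the number differed by 0.333, with KO higher (exact permutation p = 1). By gene, Traf6 had 1, 1 and 1 in KO against 3, 2 and 1 in WT, and Tab2 had 1, 1 and 3 in KO against 2, 4 and 4 in WT. Those ranges overlap, and Irak1, Map3k7, Chuk and Ikbkb had the same number in each library. These p-values place the observed split of the libraries among the 20 assignments. The labels do not say that replicates came from separate mice, so the p-values do not extend to mice.

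Called lengths were compared in the same way. In 10 of the 26 regions every KO length was shorter than every WT length, against 40.3% of all regions, and in 0 was it longer (0.238%). At the start of Myd88 the called length averaged 359 ± 179 bp over the KO libraries and 695 ± 96.3 bp over the WT libraries (SD, n = 3 each). Tab2 had 555 ± 47.7 bp in KO and 1002 ± 245 bp in WT. The called length of a peak depends on the depth of its library, and that part was not tested.

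Of the 26 regions with a height in each library, 1 was called higher in KO at an adjusted p under 0.05 and 0 lower, against 2.07% higher and 0.316% lower of all 29419 regions. The other 25 had adjusted p of 0.176 to 0.998, which does not show that their heights were alike. At an unadjusted p under 0.05 there were 3 higher and 2 lower, and 16.4% of all regions passed that bound in either direction. The differences ran between -0.35 and 0.36 with a median of 0.01, 13 above and 13 below 0, while all regions had a median of 0.03 and quartiles of -0.13 and 0.17. Before centring, 15 of the 26 had KO heights below all WT heights (48.4% of all) and 0 above (0.197%). After it, 3 were lower without overlap (6.92% of all) and 5 higher (13.7%).

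**Figure D3:**
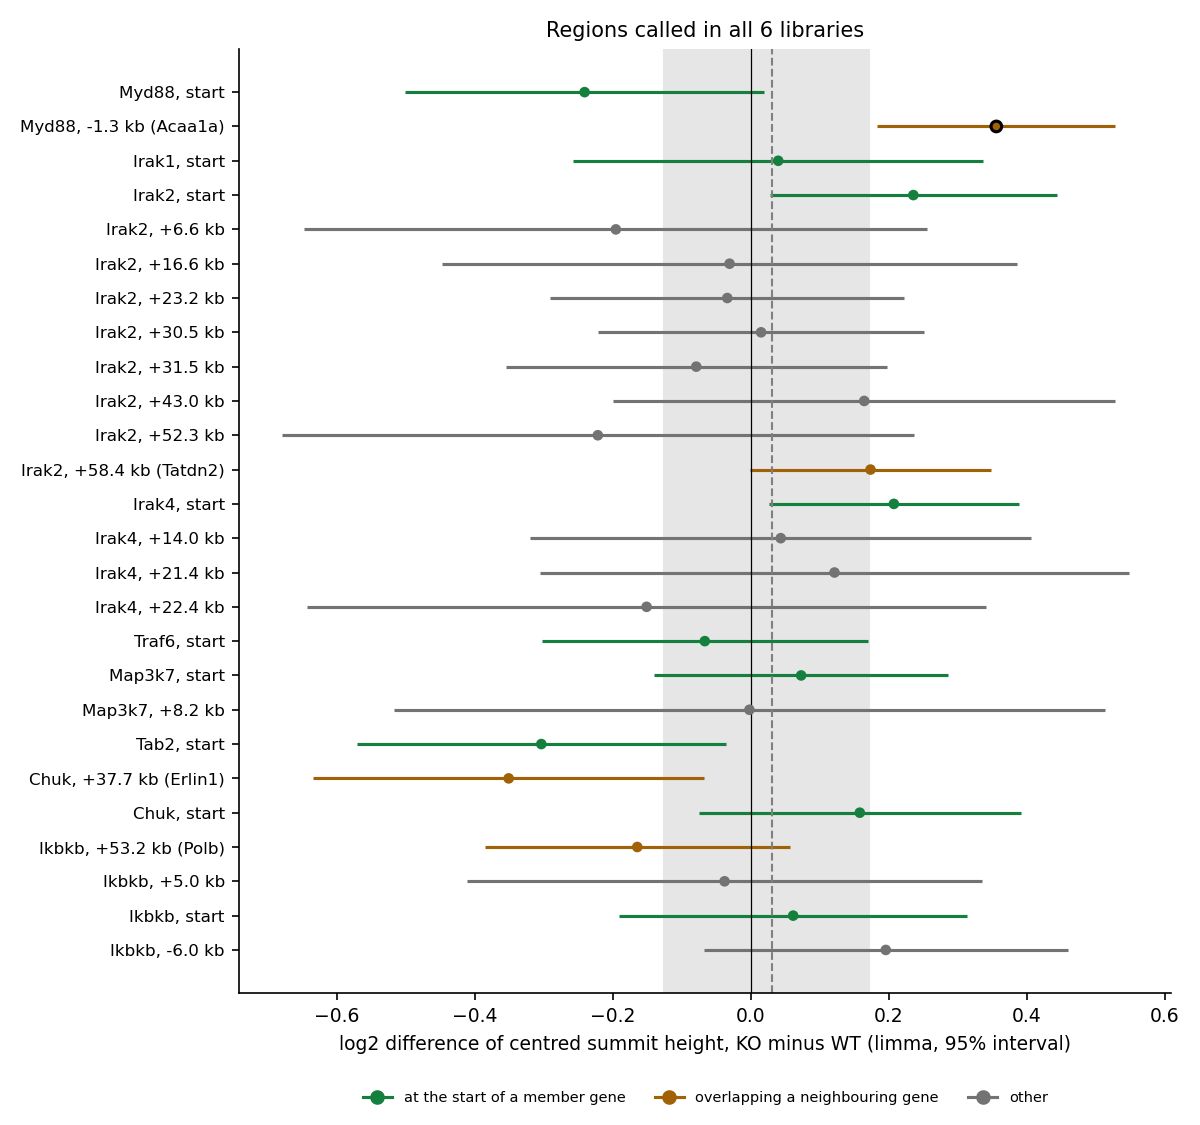
Centred log2 difference, KO minus WT, for the 26 regions called in all 6 libraries. Points are limma estimates with 95% intervals, the grey band spans the quartiles of all 29419 regions (-0.13 to 0.17), the dashed line is their median, and a black outline marks an adjusted p under 0.05. The 1 outlined point is the start region of Acaa1a next to Myd88.

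The region that passed was not at a start of the 9 genes. It held the start site of Acaa1a, which encodes a thiolase of fatty acid breakdown in peroxisomes, and lay 330 bp from the start region of Myd88 (chr9:119340696-119341754). Its heights were 4.55, 4.19 and 4.22 in KO, against 4.00, 4.85 and 4.07 in WT. These overlap, and after centring the KO values were all higher, by 0.36 (SE 0.09; 95% interval 0.18 to 0.53; adjusted p = 0.018). Among the regions in the highest quartile of mean height the median difference was 0.14 and 7.34% were called higher. The call was lost with heights scaled to the file median (0.01, adjusted p = 0.943), to tags (0.38, adjusted p = 0.999), by quantiles (0.13, adjusted p = 0.506) or by loess (0.15, adjusted p = 0.452). It was also lost with fold enrichment in place of pileup (0.40, adjusted p = 0.0891), without trend and robust fitting (adjusted p = 0.308), and when KO replicate 1 or any 1 WT library was left out, with differences of 0.33 to 0.41 over all replicates left out in turn.

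In the ratio of the Acaa1a region to the Myd88 start region any scaling factor of a library cancels. The ratio was taken after the values had been seen. It was 2.60, 2.09 and 2.69 in KO, against 1.6, 1.62 and 1.64 in WT. All KO ratios were higher, 2.46 ± 0.323 against 1.62 ± 0.0195 (SD, n = 3 each), a difference of 0.844 (exact permutation p = 0.1, the smallest possible). Since the pair was picked from these same values, that p-value describes them and gives no independent support. Leaving out each library in turn gave 0.728 to 1.03, and fold enrichment gave 0.834. On the log2 scale the mean ratio was shifted by 0.597 at this pair, KO minus WT. Of 1686 pairs of neighbouring regions at most 2000 bp apart, 15.8% had ratios that did not overlap between the groups. In 1.96% the groups did not overlap and the log2 shift was at least that large, in either direction. These pairs were not matched for height, and a shift that changes with height does not cancel in a ratio. The Acaa1a region lay in the highest quartile of mean height and the Myd88 region in the next one below. Over all regions the median differences there were 0.14 and 0.01, and the part of this in the ratio was not tested.

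**Figure D4:**
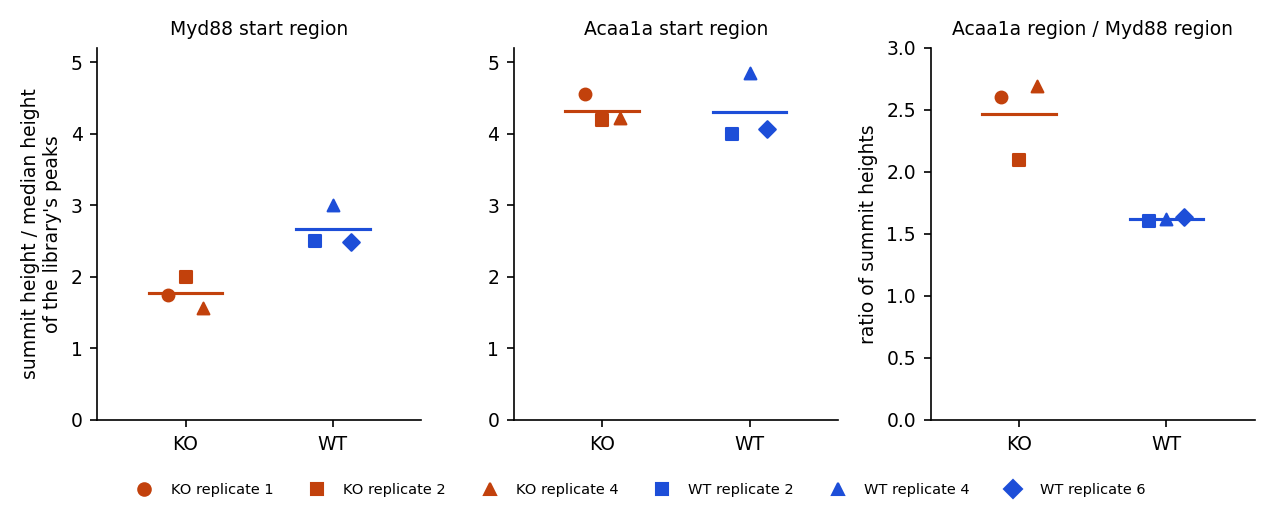
Heights of the Myd88 start region and the Acaa1a start region, and their ratio, in each library, with KO left of WT. Points are libraries and lines are group means. The ratio is 2.09 to 2.69 in the KO libraries and 1.6 to 1.64 in the WT libraries.

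A list of 19 further genes of the relay was taken: the receptor chains Il1rl1 (ST2) and Il1rap, the regulators Irak3, Tollip, Sigirr, Peli1 and Peli2, the ubiquitin enzymes Ube2n and Ube2v1, the partners Tab1, Tab3 and Ikbkg, and kinases of the JNK and p38 branch. All had regions, 116 in sum, and 51 (44.0%) were called in all 6 libraries, beside 45.4% of all regions. Of these 51, 1 was called higher in KO and 0 lower, beside 2.07% and 0.316% of all shared regions, with a median difference of 0.05, beside 0.03. The call was at Map2k3, a kinase that activates p38 (chr11:60931435-60932541). Its heights were 3.95, 3.25 and 3.17 in KO, against 3.25, 3.48 and 3.48 in WT, which overlap, and its centred difference was 0.36 (SE 0.10, adjusted p = 0.0324). Il1rl1 had 13 regions, with 8, 5 and 7 called in KO libraries and 13, 10 and 11 in WT libraries. Per 10000 peaks of the list these were 1.89, 1.34 and 1.64 in KO, against 2.44, 1.79 and 2.08 in WT, which overlap, and none of the 4 regions shared by all was called. At Il1rap 3, 2 and 1 regions were called in KO and 2, 3 and 1 in WT, and its 1 shared region was not called. Over the list, 3 of the 116 regions were called in all WT and no KO libraries, beside 4.66% of all regions, and 0 the other way. Of these 3, 1 was at Il1rl1, 1 at Map2k6 and 1 at Mapk14.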

How the data were processed

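ATAC-seq peak lists of 6 mouse Treg libraries, 3 KO and 3 WT by the genotype in the labels, were used. Per the submitters' processing notes, reads were processed on mm10, with Bowtie2 2.3.1 and Picard 1.88 among the tools. Per the file headers, MACS 2.1.1.20160309 called peaks on each library alone at a q-value of 0.05, with tags shifted by -100 bp, extended to 200 bp and 1 kept per position. As deposited, pileup is a signal: summit coverage that is not scaled to depth. A −log10 p-value and a −log10 q-value, both deposited, rate it against the local background, and the deposited fold enrichment is their ratio. A deeper library can call weaker sites, so a region that was not called is not shown to be closed.

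Peaks overlapping by at least 1 bp were merged. A region's height was that of its tallest peak, and regions called in all 6 libraries were tested with limma 3.58.1 (R 4.3.3; trend and robust fit), with Benjamini-Hochberg adjustment over 29419 regions at 0.05 on log2 pileups centred per library. For values per library the test was an exact permutation of the group labels, two-sided, over 20 assignments. Gene spans, start sites and promoters came from RefSeq on GRCm38.p6, the assembly behind mm10; no exon annotation was used here. Text names all 9 genes, with values in each library for start regions and for regions that passed the test or did not overlap. Markers covered Tregs, B cells, CD8 T and NK cells, myeloid cells and melanoma. The members, lists and tests were chosen with earlier results of these data known. Alternatives were other scalings, thresholds, merging rules and fits, and each replicate left out in turn.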

Additional observations from a re-analysis of the deposited data

How the results depend on the processing

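Calls and directions rested on scaling. The 1 region called higher in KO, at Acaa1a, became 0 under scaling to the file median, to tags, by quantiles or by loess, with fold enrichment, without trend and robust fitting, and with a replicate block. Under scaling to the file median 9 of 26 regions were called lower in KO (34.9% of all regions) and the median log2 difference was -0.34 (-0.32 for all regions), with -0.31 at Irak1, -0.11 at Irak2, -0.14 at Irak4, -0.27 at Map3k7 (adjusted p = 0.0444), -0.19 at Chuk and -0.29 at Ikbkb. Map3k7 was at -0.0328 by quantiles and -0.0399 by loess, and the median was 0.0893 with fold enrichment. Leaving out each replicate gave 0 to 1 higher calls, medians of -0.0226 to 0.0547, and 0 to 2 regions called in all WT and no KO libraries. It gave -0.0463 to 0.0914 at Irak1, -0.0432 to 0.169 at Map3k7 and -0.00656 to 0.18 at Ikbkb. At a −log10 q-value of 5 or more, 1 region, in Tab2 beside its start, was called in all WT and no KO libraries. With windows of 200 bp around summits, 1 region in Irak2 was called in the 3 KO but no WT libraries. That window lies inside a merged region of 1722 bp that was called in all 6 libraries (chr6:113660401-113662122). The WT peaks there, 1662 to 1713 bp long, covered the window and had their summits elsewhere, so it is not a site without WT signal. Regions per library differed by 0.333 in lists of equal length, and per 10000 peaks by -0.0741 with 50% coverage. The cause of these changes was not tested. The start regions of Myd88, Traf6 and Tab2 were lower in KO under every alternative run, past the threshold only under scaling to the file median. Their sizes varied: leaving out each replicate gave -0.361 to -0.153 at Myd88, -0.124 to -0.0177 at Traf6 and -0.364 to -0.191 at Tab2, and Tab2 was at -0.0435 with fold enrichment and -0.151 with the block. Replicate numbers 2 and 4 did not pair the libraries (r = -0.02 and -0.05); a replicate block over them gave 0 calls, -3.5 regions and 1.23 per 10000 peaks. KO start pileups of 26 to 84, against 51 to 120 in WT, limit precision.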
